A study of Mus musculus with 8 samples.

Results

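Expression of 35 genes of the endoplasmic reticulum (ER), the compartment in which secreted and membrane proteins are folded, was followed in mouse pro-B cells with and without Setdb1. The genes encode ER chaperones, parts of the machinery that moves proteins into the ER, factors of ER-associated degradation (ERAD), and the sensors of the unfolded protein response. They were taken by symbol. The platform annotation named 1 of these symbols, and no other, for 470 of the 212097 probesets with a single symbol, so that 35 of 20416 genes were covered, by 3 to 28 probesets each. Setdb1 is an enzyme that methylates lysine 9 of histone H3, a mark of silent chromatin. The study used 8 arrays, 2 in each of 4 groups. Marrow controls were pro-B cells from bone marrow with the floxed gene (Setdb1 C/C, intact) and no Bcl2 transgene, and deleted marrow cells were Setdb1 Δ/Δ pro-B cells, likewise without the transgene. Culture controls (Setdb1 C/C) and deleted cultured cells (Setdb1 Δ/Δ) both carried the bcl-2 transgene, which guards cells against apoptosis, and both spent 4 days in interleukin-7 (IL-7), a cytokine that sustains pro-B cells. Culture and transgene therefore always went together and cannot be told apart. The labels repeat the culture protocol under the marrow samples too, while the series' design text has those cells straight from marrow. The driver of the deletion, the ages of the mice and whether paired arrays of a group stem from different mice are not given in the sources used here. All p-values below therefore rest on the spread between 2 arrays of a group, pooled over the 4 groups, and that spread may be technical. A p-value for culture thus also draws on the spread of the marrow arrays, and the reverse.

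Proteins enter the ER through the Sec61 channel and are folded there by chaperones such as BiP, by disulphide isomerases and by the lectins calnexin and calreticulin. Chains that fail to fold are pulled back to the cytosol and degraded, which is ERAD. When unfolded chains accumulate, the sensors IRE1, PERK and ATF6 start the unfolded protein response. IRE1 splices the RNA of Xbp1, and the resulting factor, together with cleaved ATF6, switches on chaperone, translocation and ERAD genes. In the B lineage this programme is best known from plasma cells, which enlarge the ER to secrete antibody.

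Many ER chaperone promoters hold an ER stress response element (ERSE), in which a CCAAT box, bound by NF-Y, is followed after a fixed spacer by CCACG, the part recognised by ATF6 and XBP1. RefSeq promoter sequences of build GRCm38.p6 covered 29 of the 35 genes in 30 windows. The 250 bases before the transcript start were searched on both strands. The ERSE, searched as CCAAT, 9 bases of any kind and CCACG, was present in 9 of the 29 genes (31.0%), against 0.113% of all 32851 windows of the same length. The matches are shown because the element is the one best known from these genes, so its high share among them is not an independent finding. The other 20 of the 29 have no match in the window. Each is written along the strand of the match, with CCAAT and CCACG in capitals and positions counted back from the start:
Hspa5, 65 to 47 bases before the start: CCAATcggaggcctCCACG
Hsp90b1, 212 to 194 bases before the start: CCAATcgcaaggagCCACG
Hsp90b1, 107 to 89 bases before the start: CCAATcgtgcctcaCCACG
Pdia6, 98 to 80 bases before the start: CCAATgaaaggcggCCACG
Calr, 162 to 144 bases before the start: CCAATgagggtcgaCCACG
Canx, 145 to 127 bases before the start: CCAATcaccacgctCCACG
Dnajc3, 105 to 87 bases before the start: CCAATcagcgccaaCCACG
Creld2, 126 to 108 bases before the start: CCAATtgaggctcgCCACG
Syvn1, 44 to 26 bases before the start: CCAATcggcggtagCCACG
Derl3, 156 to 138 bases before the start: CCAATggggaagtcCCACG

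The related element ERSE-II (ATTGG, 1 base of any kind and CCACG, overlapping no match of the ERSE) was found in 1 of the 29 genes, Herpud1, 52 to 42 bases before the start (ATTGGgCCACG), against 0.0304% of all windows. The XBP1 site TGACGTGG was in 0 of 29 windowed genes and 0.563% of all windows, and the ATF4 site TGATGNAA was in 1 gene, again Herpud1, and 3.45% of all windows. CCAAT and CCACG on their own, which the ERSE contains, were in 22 and 21 of the 29 genes and in 33.8% and 28.3% of all windows. A match describes letters in a window and does not show that a factor binds there. Pdia6 and Creld2 are printed whole as the genes with an ERSE and the largest changes in culture among those called in the tests below. The letters run 5′ to 3′ along the gene and end at the base before the start, with the ERSE in capitals:
Pdia6, chr12:17266339-17266588, plus strand: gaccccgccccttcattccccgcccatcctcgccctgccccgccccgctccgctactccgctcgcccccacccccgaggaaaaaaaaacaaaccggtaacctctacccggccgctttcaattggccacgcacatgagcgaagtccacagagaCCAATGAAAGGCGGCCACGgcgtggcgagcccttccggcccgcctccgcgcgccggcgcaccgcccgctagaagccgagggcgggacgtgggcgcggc
Creld2, chr15:88819396-88819645, plus strand: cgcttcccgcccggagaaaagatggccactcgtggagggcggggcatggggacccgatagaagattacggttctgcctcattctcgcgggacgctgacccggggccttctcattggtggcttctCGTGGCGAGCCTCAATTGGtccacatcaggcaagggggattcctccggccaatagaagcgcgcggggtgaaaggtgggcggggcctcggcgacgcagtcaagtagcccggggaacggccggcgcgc
In Creld2 the element lies on the opposite strand, so its capitals read as the reverse complement of the line given above for that gene.

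Values are log2 signals after robust multi-array averaging, summarised per gene over its probesets. Over all genes the 2 arrays of a group correlated at 0.945 to 0.988. All 35 genes lay above the value set for dim genes, 4.03, in all 8 arrays, and all were tested among 16050 genes. The 11 pro-B markers on the array, among them Pax5, Ebf1, Vpreb1 and Rag1, lay above that value in every array. With deletion in culture 4 of the 11 were higher and 7 lower, with a median difference of -0.54, and 8 had an unadjusted p under 0.05 while 0 passed after adjustment. Rag1 read 9.95 and 9.35 in culture controls against 7.03 and 6.43 in deleted cultures (adjusted p = 0.0504), and Il7r, Pax5, Ebf1 and Rag2 were lower too, while Igll1 and Dntt were higher. In marrow 9 of the 11 were higher with deletion, with a median of 0.31. Averaged over marrow and culture, 1 of the 11 rose and 0 fell after adjustment (limma, 1.48% of all genes rose and 1.38% fell). The part of these shifts in the ER results was not tested. The arrays also read RNA of other cells. Marrow control 1 read 12.04 for Vcam1, 10.18 for Csf1r and 11.07 for Cd68, genes of macrophages, against 6.37, 7.86 and 8.26 in marrow control 2. The summed level of 16 neutrophil and monocyte markers (log2 of the sum) was 14.63 to 14.66 in the marrow controls, 14.21 to 14.41 in deleted marrow cells, 9.30 and 13.40 in culture controls 1 and 2, and 11.01 and 13.75 in deleted cultures 1 and 2. Results are therefore also given without these arrays.

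ER chaperone, disulphide isomerase and translocon genes were higher in Setdb1-deleted cells. Averaged over marrow and culture, 15 of the 35 genes rose and 0 fell (limma, adjusted p under 0.05), whereas 1.48% of the 16050 tested genes rose and 1.38% fell. At an unadjusted p under 0.05 it was 24 of 35 (17.9% of all genes). The largest of these 15 rises were Sdf2l1, a partner of the BiP co-chaperones (log2 difference 1.20, SE 0.23), Hyou1, which recharges BiP (1.18, SE 0.15), and Pdia6, a disulphide isomerase (1.11, SE 0.11). The median difference over the 35 genes was 0.60, against 0.02 over all genes. In 21 of the 35 genes all 4 deleted arrays lay above all 4 control arrays, which held for 5.13% of all genes, and in 0 genes did they all lie below (3.76%). In bulk samples more cells of a type and more RNA per cell cannot be told apart.

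In culture alone, 8 genes rose and 0 fell (0.735% of all genes rose and 0.710% fell), namely Hyou1, Pdia4, Pdia6, P4hb, Calr, Xbp1, Sec61a1 and Ssr3. The median over the 35 genes was 0.78, against 0.01 over all genes, and 25 had an unadjusted p under 0.05 (15.0% of all). Both deleted arrays lay above both controls for 26 genes (22.4% of all) and below for 2, Edem3 and Atf6 (21.8%). In marrow 0 of 35 passed (background 0.0374% rose and 0.0935% fell), with 16 at an unadjusted p under 0.05 (11.8% of all genes), a lowest adjusted p of 0.111 (Pdia6) and a median of 0.42, against 0.04 over all genes. There the deleted arrays lay above the controls for 25 genes (27.3% of all) and below for Atf6 alone (17.6%). The members and their pathway were picked with results of these arrays known, so the counts are not independent evidence of the direction. With a term for the replicate number in the fit, 8 genes rose over both settings and 3 in culture (1.98% and 0.717% of all genes were called). The counts of calls depended on single arrays, while the median did not leave 0.50 to 0.64 over both settings and 0.65 to 0.81 in culture when 1 array was left out. Of the shared rises, 15 became 14 (with Edem3 called lower as well) without marrow control 1, 14 without marrow control 2, 1 and 0 without deleted marrow 1 and 2, 1 and 9 without culture control 1 and 2, and 5 and 1 without deleted culture 1 and 2. Wherever only 1 remained it was Pdia6. The share of all genes called, in either direction, moved as well, from 2.86% with all arrays to 0.243% without deleted marrow 2 and 4.82% without marrow control 2. The 8 rises in culture became 14 without either marrow control, 2 without culture control 2 (Pdia6 and Xbp1), and 0 without any one of the other 5 arrays. Over all genes 1.45% were called in culture with all arrays, 2.67% without either marrow control, 0.424% without culture control 2, and 0.00623% to 0.15% without any one of the other 5. Without both culture arrays numbered 2, which hold the most neutrophil RNA in culture, both counts were 0 (0.174% and 0.0498% of all genes), with medians of 0.58 over both settings and 0.72 in culture.

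**Figure D1:**
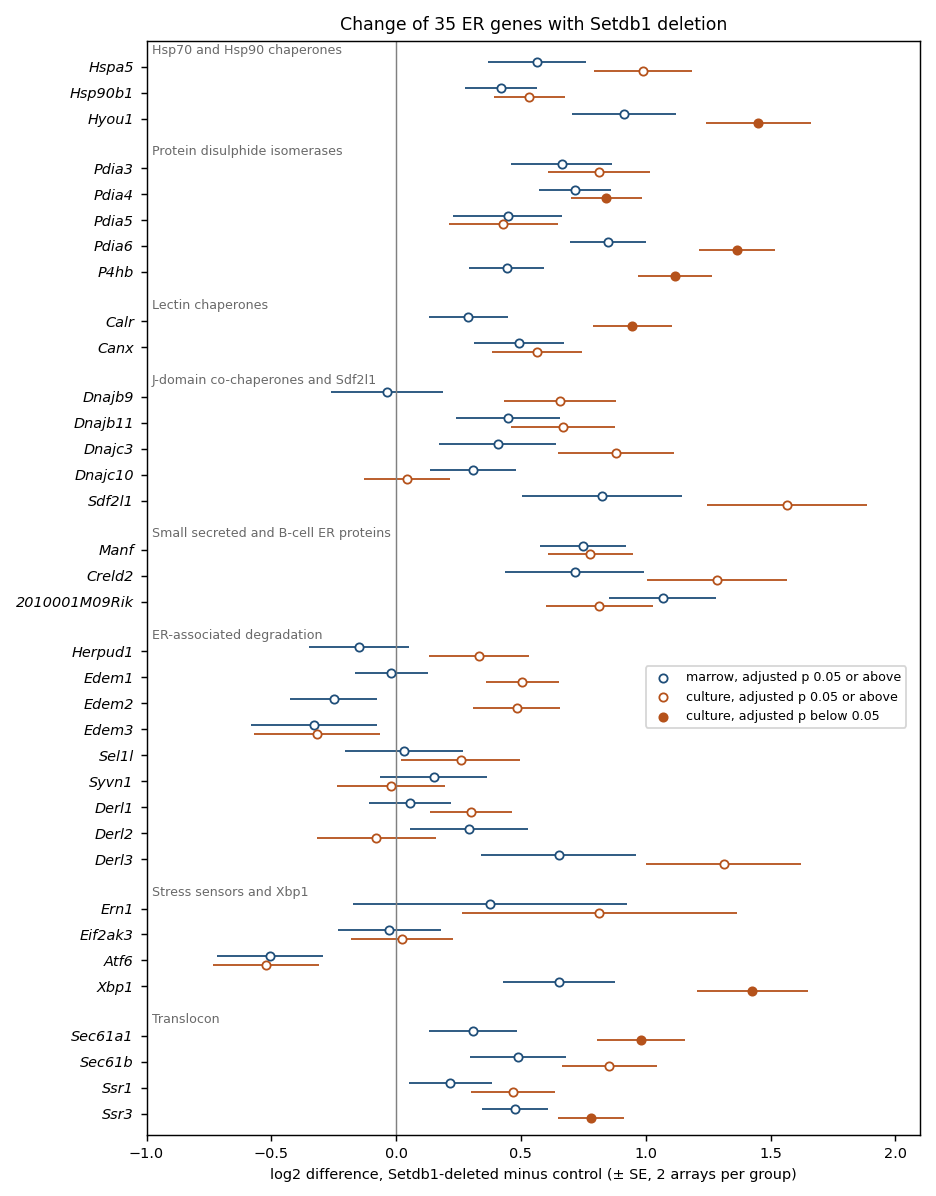
Log2 difference between Setdb1-deleted and control arrays (x axis, ± SE, 2 arrays per group) for the 35 ER genes (y axis, grouped by role) in marrow (blue) and culture (orange); filled points have an adjusted p below 0.05 in limma. Filled points are the 8 genes that rose in culture, from Ssr3 at 0.78 to Hyou1 at 1.45, and Atf6 lies near -0.5 in both settings.

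Hspa5 encodes BiP, the Hsp70 that binds unfolded chains and holds the sensors inactive. It read 10.19 and 9.66 in marrow controls against 10.49 and 10.48 in deleted marrow cells, and 9.63 and 9.78 in cultured controls against 10.60 and 10.79 in deleted cultures. Every deleted array was above every control array, and marrow control 1 was the highest control. The difference was 0.56 in marrow (SE 0.20, adjusted p = 0.332) and 0.99 in culture (SE 0.20, adjusted p = 0.0649), and 0.78 (SE 0.14, adjusted p = 0.0337) over both settings, a 1.71-fold rise. Hyou1, or Grp170, exchanges nucleotide on BiP. Its values were 7.88 and 7.40 in marrow controls against 8.65 and 8.45 in deleted marrow cells, and 7.41 and 7.79 in cultured controls against 9.03 and 9.07 in deleted cultures. The groups did not overlap in either setting, and both deleted cultures were the highest arrays. Hyou1 rose in culture by 1.45 (SE 0.21, adjusted p = 0.0291), a 2.73-fold change, and read 0.91 (SE 0.21, adjusted p = 0.164) in marrow. Hsp90b1, or Grp94, folds integrins and Toll-like receptors. It read 11.00 and 10.91 against 11.37 and 11.37 in marrow and 10.77 and 10.87 against 11.25 and 11.46 in culture, controls first. The arrays were separated in both settings, but the shared difference of 0.48 (SE 0.10, adjusted p = 0.0568) missed the threshold.

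Protein disulphide isomerases, which form and reshuffle disulphide bonds, rose over both settings for 4 of 5 members. Pdia6 gave 8.81 and 8.64 in marrow controls against 9.56 and 9.58 in deleted marrow cells, and 8.51 and 8.71 in cultured controls against 9.87 and 10.07 in deleted cultures. Within each group the arrays lay close together, and every deleted array was above every control. The difference was 0.85 in marrow (SE 0.15, adjusted p = 0.111) and 1.36 in culture (SE 0.15, adjusted p = 0.0169). P4hb, the classical isomerase, read 8.95 and 8.77 in marrow controls against 9.30 and 9.31 in deleted marrow cells, and 8.29 and 8.52 in cultured controls against 9.50 and 9.55 in deleted cultures. In the culture controls it was lower than in the marrow controls, and the deleted arrays of both settings stood close together. The difference was 0.44 in marrow (SE 0.15, adjusted p = 0.327) and 1.12 in culture (SE 0.15, adjusted p = 0.024). For Pdia4, or ERp72, the arrays read 8.50 and 8.41 in marrow controls against 9.11 and 9.23 in deleted marrow cells, and 8.70 and 8.64 in cultured controls against 9.42 and 9.61 in deleted cultures. Deleted and control arrays did not overlap, with 0.72 in marrow (SE 0.14, adjusted p = 0.136) and 0.84 in culture (SE 0.14, adjusted p = 0.04). Pdia3, or ERp57, which works with calnexin and calreticulin on glycoproteins, read 9.12 and 8.71 in marrow controls against 9.55 and 9.60 in deleted marrow cells, and 8.60 and 8.82 in cultured controls against 9.32 and 9.72 in deleted cultures. Every deleted array was above every control. Its shared difference was 0.74 (SE 0.14, adjusted p = 0.0443), and neither setting passed alone. Pdia5 was near the dim end, from 4.32 in culture control 2 to 5.38 in deleted marrow 2, with a shared difference of 0.44 (SE 0.15, adjusted p = 0.195).

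Of the lectin chaperones, which hold glycoproteins while they fold, the soluble Calr rose in culture. It read 10.10 and 10.13 in marrow controls against 10.54 and 10.27 in deleted marrow cells, and 9.61 and 9.71 in cultured controls against 10.49 and 10.72 in deleted cultures. Culture controls were the lowest arrays and deleted cultures included the highest. The difference was 0.29 in marrow (SE 0.16, adjusted p = 0.524) and 0.95 in culture (SE 0.16, adjusted p = 0.0389). Its membrane-bound relative Canx read 10.26 and 9.90 against 10.52 and 10.63 in marrow and 9.83 and 10.09 against 10.44 and 10.61 in culture. Those groups were separated as well, and the shared difference of 0.53 (SE 0.13, adjusted p = 0.0829) did not pass.

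Among the J-domain co-chaperones, which deliver clients to BiP, and their partner Sdf2l1, 1 of 5 passed over both settings and 0 in either alone. Sdf2l1 read 7.64 and 6.91 in marrow controls against 8.04 and 8.16 in deleted marrow cells, and 6.31 and 6.94 in cultured controls against 7.88 and 8.49 in deleted cultures. The groups did not overlap, but the spread between arrays of a group reached 0.51 (SD, n = 2) in the marrow controls. The difference in culture, 1.56 (SE 0.32, adjusted p = 0.0713), was the largest of any of the 35 genes in size but missed the threshold, and over both settings Sdf2l1 rose by 1.20 (SE 0.23, adjusted p = 0.0409). Dnajb11, or ERdj3, and Dnajc3, or p58IPK, had shared differences of 0.56 (SE 0.15, adjusted p = 0.101) and 0.64 (SE 0.16, adjusted p = 0.0958), and all their deleted arrays lay above all controls. Dnajb9, or ERdj4, which keeps IRE1 in check, read 8.38 and 7.73 in the marrow controls around 7.96 and 8.07 in deleted marrow cells, with -0.04 in marrow (SE 0.22, adjusted p = 0.974) and 0.66 in culture (SE 0.22, adjusted p = 0.232). Dnajc10, or ERdj5, a reductase that opens disulphides before degradation, had 0.31 in marrow (SE 0.17, adjusted p = 0.54) and 0.04 in culture (SE 0.17, adjusted p = 0.946).

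Manf and Creld2 encode small ER proteins that are released under stress, and 2010001M09Rik, now Mzb1, encodes a B-cell partner of Grp94 needed for antibody assembly. All 3 rose over both settings. Manf read 8.62 and 8.41 in marrow controls against 9.27 and 9.26 in deleted marrow cells, and 8.59 and 8.98 in cultured controls against 9.58 and 9.55 in deleted cultures, with a shared difference of 0.76 (SE 0.12, adjusted p = 0.0239). Its deleted arrays were all above its controls. Creld2 read 7.35 and 6.66 in marrow controls against 7.82 and 7.62 in deleted marrow cells, and 6.15 and 6.75 in cultured controls against 7.63 and 7.84 in deleted cultures. Marrow control 1 was again the highest control, and the shared difference was 1.0 (SE 0.20, adjusted p = 0.0467). 2010001M09Rik read 8.52 and 9.19 in marrow controls against 9.92 and 9.93 in deleted marrow cells, and 9.81 and 9.83 in cultured controls against 10.62 and 10.64 in deleted cultures. Here the settings differed in level as well: both culture controls lay above both marrow controls, by 0.96 (SE 0.21, adjusted p = 0.151). The difference with deletion was 1.07 in marrow (SE 0.21, adjusted p = 0.136) and 0.81 in culture (SE 0.21, adjusted p = 0.137), and 0.94 (SE 0.15, adjusted p = 0.0249) over both. Without marrow control 2 the marrow difference was 1.40. That value rests on marrow control 1 as the only marrow control, the array with the lowest value of this gene. Plasma cells also express these genes. Of 10 plasma cell markers 9 to 10 were above 4.03 in the control arrays and 8 to 9 in the deleted arrays. Their summed level read 10.72 to 11.01 in culture controls and 10.40 to 10.66 in deleted cultures, and 10.65 to 10.88 and 10.43 to 10.53 in marrow. The sums were lower in the deleted arrays of each setting, and 0 of the 10 markers passed in either. Irf4 and Slamf7 read highest of the 10 in every array, so the sums mostly follow these genes and say little about the dimmer markers. Over both settings 1 of the 10 fell and 0 rose (limma, 1.38% of all genes fell and 1.48% rose). The markers did not all go one way in culture: 7 were lower, among them Irf4 (9.59 and 9.14 in controls against 8.45 and 8.26), and 3 were higher, Cd28 (4.85 and 5.33 against 6.03 and 5.72), Ell2 (7.64 and 6.80 against 8.25 and 7.23) and Fkbp11 (4.74 and 4.81 against 4.88 and 5.12). Igj, the antibody joining chain, was above 4.03 in marrow control 2 and culture control 2 only. The part of such cells in the result was not tested.

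**Figure D2:**
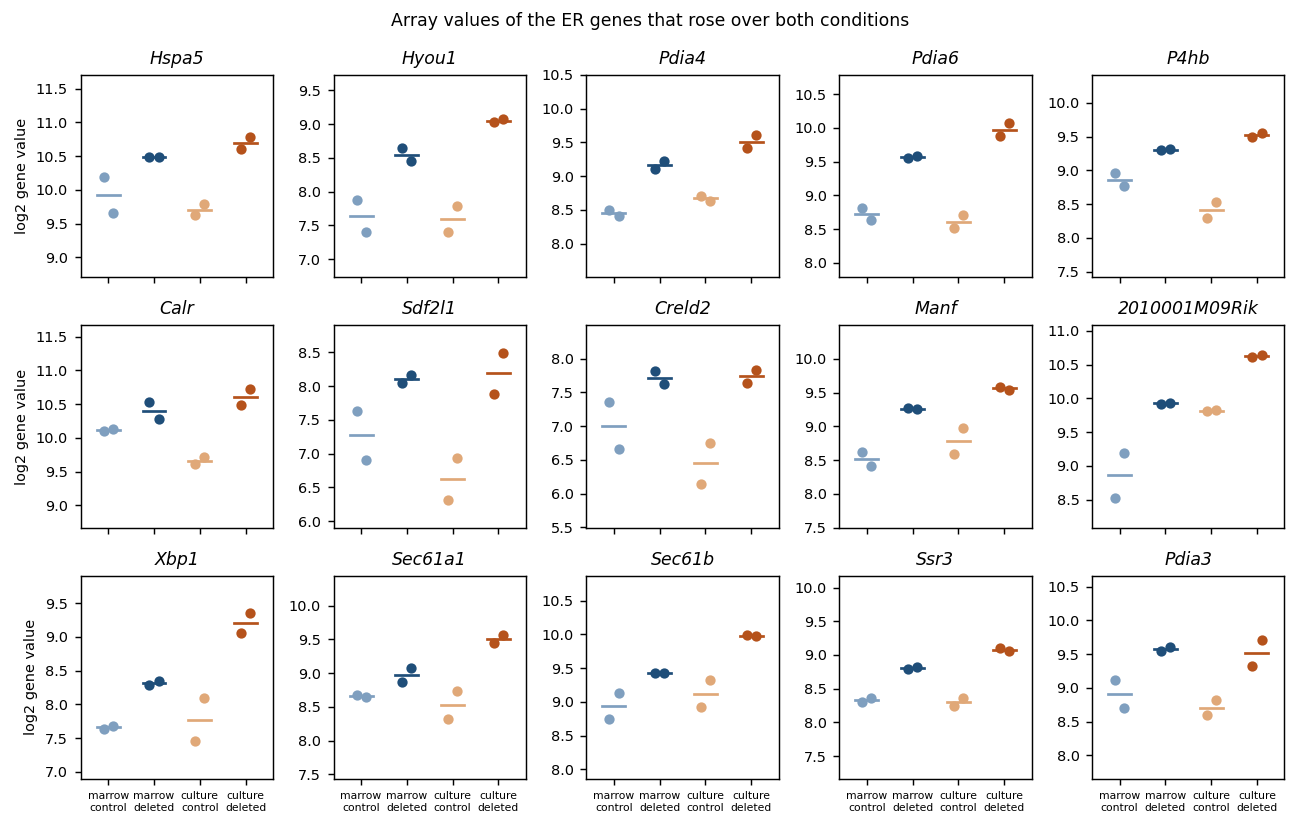
Log2 gene value (y axis, each panel spans 3 log2 units) of the 15 genes that rose with deletion over both settings, 1 panel per gene, by group (x axis); points are single arrays and lines are means of 2. In each panel the 4 deleted arrays lie above the 4 control arrays; levels are not comparable between panels.

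The translocon genes rose for 3 of 4 members over both settings. Sec61a1, the pore of the channel, read 8.68 and 8.65 in marrow controls against 8.87 and 9.07 in deleted marrow cells, and 8.32 and 8.73 in cultured controls against 9.45 and 9.56 in deleted cultures. Deleted cultures were highest, and the difference was 0.31 in marrow (SE 0.18, adjusted p = 0.547) and 0.98 in culture (SE 0.18, adjusted p = 0.0482). Ssr3, a subunit of the translocon-associated TRAP complex, read 8.31 and 8.36 in marrow controls against 8.80 and 8.82 in deleted marrow cells, and 8.24 and 8.36 in cultured controls against 9.10 and 9.05 in deleted cultures. Replicates of Ssr3 lay close together in every group, with the deleted arrays above, and the difference was 0.48 in marrow (SE 0.13, adjusted p = 0.242) and 0.78 in culture (SE 0.13, adjusted p = 0.04). Sec61b, a small subunit of the channel, read 8.74 and 9.13 in marrow controls against 9.42 and 9.43 in deleted marrow cells, and 8.93 and 9.32 in cultured controls against 9.98 and 9.97 in deleted cultures. The shared difference of 0.67 (SE 0.13, adjusted p = 0.0482) passed, while neither setting passed alone. Ssr1, another TRAP subunit, had a shared difference of 0.34 (SE 0.12, adjusted p = 0.186), with its deleted arrays all above its controls.

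Xbp1 encodes the transcription factor made by IRE1 splicing, and was the 1 of 4 genes of the sensor group that rose. It read 7.64 and 7.68 in marrow controls against 8.29 and 8.34 in deleted marrow cells, and 7.45 and 8.10 in cultured controls against 9.06 and 9.35 in deleted cultures. Both deleted cultures were above all other arrays, and culture control 2 was the highest control. The difference was 0.65 in marrow (SE 0.22, adjusted p = 0.33) and 1.43 in culture (SE 0.22, adjusted p = 0.0353), a 2.69-fold rise in culture. Probesets here read total Xbp1 RNA, so spliced and unspliced forms were not distinguished. Atf6, the sensor that is cleaved in the Golgi, read 7.80 and 8.20 in marrow controls against 7.35 and 7.64 in deleted marrow cells, and 8.46 and 8.17 in cultured controls against 7.96 and 7.63 in deleted cultures. It was lower in both deleted arrays of each setting, the only member with that pattern in both, but did not pass: -0.51 in marrow (SE 0.21, adjusted p = 0.412) and -0.52 in culture (SE 0.21, adjusted p = 0.309). Eif2ak3, or PERK, which phosphorylates eIF2alpha, had -0.03 in marrow (SE 0.21, adjusted p = 0.979) and 0.02 in culture (SE 0.21, adjusted p = 0.977).

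Ern1 encodes IRE1 itself and stood apart in 1 array. It read 6.04 and 6.51 in marrow controls against 6.68 and 6.62 in deleted marrow cells, and 6.30 and 6.78 in cultured controls against 8.34 and 6.37 in deleted cultures. Deleted culture 1 was 1.97 above deleted culture 2 and above each of the other 7 arrays, whose highest value was 6.78. Of its 23 probesets 21 were highest in that array, and their median gap to deleted culture 2 was 1.93. Over the 35 genes the median gap between these 2 arrays was 0.20 and the next largest was 0.80, for Derl3, also higher in deleted culture 1. The difference of Ern1 in culture was 0.81 (SE 0.55, adjusted p = 0.561), and Ern1 was chosen for this account after its values were seen.

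**Figure D3:**
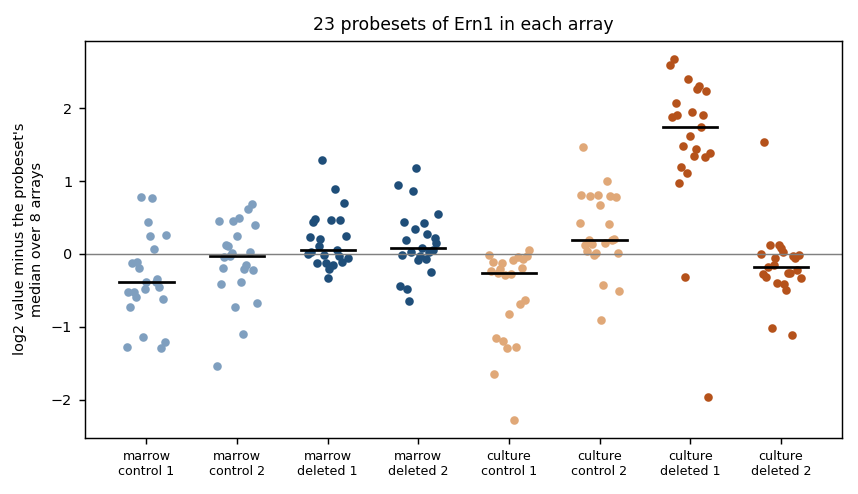
Log2 value of each of the 23 Ern1 probesets minus that probeset's median over the 8 arrays (y axis), by array (x axis); points are probesets, black lines their median. The median is 1.74 in deleted culture 1 and between -0.38 and 0.19 in the other 7 arrays.

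Of the 9 ERAD genes 0 passed in marrow, in culture or over both, with 8 of 9 shared differences above 0 and a median of 0.12. Derl3, a derlin that guides chains out of the ER and is known as an XBP1 target, had the largest change of the group. It read 5.58 and 6.33 in marrow controls against 6.65 and 6.56 in deleted marrow cells, and 6.39 and 6.36 in cultured controls against 8.08 and 7.28 in deleted cultures. All deleted arrays exceeded all controls, and the difference was 0.65 in marrow (SE 0.31, adjusted p = 0.466) and 1.31 in culture (SE 0.31, adjusted p = 0.109). Herpud1, which recruits ubiquilins to the degradation complex, had -0.15 in marrow (SE 0.20, adjusted p = 0.832) and 0.33 in culture (SE 0.20, adjusted p = 0.507). The mannosidase-like lectins Edem1 and Edem2 had 0.50 and 0.48 in culture and -0.02 and -0.25 in marrow, and neither passed (adjusted p from 0.168 to 0.979). Edem3 was lower in both deleted cultures than in both controls (7.78 and 7.71 against 8.09 and 8.03), with -0.32 (SE 0.18, adjusted p = 0.408) over both settings. Without marrow control 1, whose value was 7.69 against 8.51 in control 2, the shared difference was -0.53. That value rests on control 2 as the only marrow control, the array where Edem3 was highest. Syvn1, the ubiquitin ligase of the complex, had a shared difference of 0.06 (95% interval -0.29 to 0.42), and its adaptor Sel1l 0.14 (-0.25 to 0.53). The derlins Derl1 and Derl2 had 0.18 and 0.11.

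Whether the deletion effect differed between culture and marrow was tested directly. In 29 of the 35 genes the difference was larger in culture (45.6% of all genes), with a median gap of 0.30 against -0.04 over all genes. No gene passed: 0 of 35, as 0.00% of all genes, with limma, 7 at an unadjusted p under 0.05 (7.58% of all genes), and a lowest adjusted p of 0.605, for P4hb. Culture itself, which includes the transgene, moved 0 of 35 genes past the threshold in control cells (0.162% of all genes rose and 0.143% fell), with 5 at an unadjusted p under 0.05 (13.2% of all) and a median of -0.11. In deleted cells it was also 0 of 35 (0.685% of all genes rose and 0.293% fell), with 11 unadjusted (11.6%) and a median of 0.21. Without marrow control 2 the count in control cells was 2, 2010001M09Rik at 1.29 and Dnajb9 at -0.87, while 5.47% of all genes were called in that fit. These contrasts share arrays with the deletion contrasts. The group mean was highest in deleted cultured cells for 26 genes and lowest in culture controls for 20. These counts were not made over all genes and describe the 35 genes only.

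The parts of each gene were compared through its probesets, which share the gene's RNA and are not replicates. Of 461 tested member probesets, 354 were higher with deletion in marrow and 373 in culture. Their medians were 0.38 and 0.60, against 0.04 and 0.01 over all probesets. Deleted arrays lay entirely above controls for 227 probesets in marrow (49.2%, against 22.1% of all probesets) and 265 in culture (57.5%, against 20.2%). They lay entirely below for 34 in marrow (7.38%, against 17.3% of all probesets) and 29 in culture (6.29%, against 20.0%). With limma 0 member probesets passed over the 176903 tested in either setting, as 0.00% of all, with 60 at an unadjusted p under 0.05 in marrow (7.56% of all probesets) and 153 in culture (10.2%). For Pdia6, all 13 probesets had both deleted cultures above both controls, by 0.84 to 2.35. Canx was as even in direction, with 16 of 16 probesets higher in both settings. In Atf6, 14 of 16 probesets were lower in marrow and 15 in culture, and in Edem3 20 of 21 were lower in each. Syvn1 was mixed, with 13 of 19 higher in marrow and 7 in culture.

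Further genes of the same compartment were read from separate lists, with values given as log2 differences between deleted and control arrays. Beside the counts of each list, 0.735% of all genes rose in culture, 0.0374% in marrow and 1.48% over both. In translocation, signal peptide cleavage and N-glycosylation, 3 of 29 rose in culture, 0 of 29 in marrow and 7 of 29 over both, with medians of 0.35 and 0.26 in culture and marrow. The risers in culture were Rpn1, of the oligosaccharyltransferase, 1.25 (SE 0.20, adjusted p = 0.0367), Spcs2, of signal peptidase, 1.01 (SE 0.17, adjusted p = 0.0427), and Magt1, an oxidoreductase of the oligosaccharyltransferase, 0.80 (SE 0.14, adjusted p = 0.0482). Over both settings Rpn1, Spcs3, Spcs2, Magt1, Krtcap2, Ostc and Srp68 passed, with differences from 0.59 to 0.96. In marrow the lowest p belonged to Spcs3, 0.77 (SE 0.15, adjusted p = 0.129), and Krtcap2, 0.83 (SE 0.19, adjusted p = 0.16). Among oxidoreductases, prolyl isomerases and glycoprotein folding factors, 1 of 30 rose in culture, Cnpy2 at 0.87 (SE 0.15, adjusted p = 0.0429), and 1 of 30 in marrow, Clgn, a calnexin relative best known from testis, at 2.56 (SE 0.27, adjusted p = 0.023). Over both it was 2 of 30, the same genes. In ER-Golgi transport 1 of 33 rose in culture, the COPII coat gene Sec24d at 2.26 (SE 0.34, adjusted p = 0.0342), 0 of 33 in marrow, where Surf4 read 0.76 (SE 0.16, adjusted p = 0.136) and Tmed3 0.65 (SE 0.23, adjusted p = 0.344), and 4 of 33 over both, where Lman1, Sec24d, Surf4 and Tmed9 passed. These calls depended on the settings as those of the 35 genes did: the 7 listed calls in culture, in all lists, were each lost in 8 to 11 of 16 alternatives, Clgn in marrow in 7 of 16, and the 19 calls over both settings in 0 (Clgn) to 12 (Vcp) of 15. None of these lists had a member that fell in the marrow, culture or shared contrast.

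Other ERAD genes had 0 of 23 past in culture, 0 of 23 in marrow and 1 of 23 over both (Vcp), with medians of 0.06 and 0.04. For this and the next lists the shares of all genes that rose were again 0.735% in culture, 0.0374% in marrow and 1.48% over both. The ATPase Vcp read 0.57 (SE 0.16, adjusted p = 0.164) in culture and 0.56 (SE 0.16, adjusted p = 0.261) in marrow, Rnf139 read -0.51 (SE 0.14, adjusted p = 0.157) in culture and Nploc4 0.51 (SE 0.15, adjusted p = 0.276) in marrow. For the other sensors and processing factors 0 of 13, 0 of 13 and 0 of 13 passed. Creb3l2, an ATF6-like factor, read 1.60 (SE 0.43, adjusted p = 0.139) and Wfs1 0.43 (SE 0.17, adjusted p = 0.284) in culture, and Mbtps2, a protease that releases ATF6, 0.36 (SE 0.16, adjusted p = 0.426) and Atf6b 0.33 (SE 0.15, adjusted p = 0.451) in marrow. The Atf4 branch, the amino acid response downstream of PERK and other kinases, had 2 of 18 risen in culture, 0 of 18 in marrow and 5 of 18 over both, where Psat1, Trib3, Phgdh, Asns and Chac1 passed. Asns, asparagine synthetase, read 1.54 (SE 0.24, adjusted p = 0.0353) in culture and 1.30 (SE 0.24, adjusted p = 0.111) in marrow. Chac1, which degrades glutathione, read 1.14 (SE 0.19, adjusted p = 0.0398) in culture, and Phgdh, of serine synthesis, 1.18 (SE 0.22, adjusted p = 0.119) in marrow. Cytosolic and mitochondrial chaperones, a list outside the ER, had 0 of 24, 0 of 24 and 0 of 24 past, with medians of 0.25 in culture and 0.27 in marrow. Of these 24 genes 19 were higher with deletion in culture, 21 in marrow and 20 over both (51.3%, 56.0% and 53.2% of all genes). Their lowest p belonged to Hspa9, 0.75 (SE 0.32, adjusted p = 0.327), and Hsp90ab1, 0.32 (SE 0.15, adjusted p = 0.385), in culture and to Cct5, 0.39 (SE 0.15, adjusted p = 0.384), and Dnajb1, 0.36 (SE 0.15, adjusted p = 0.417), in marrow. With limma these counts of 0 stand beside 1, 2 and 3 genes at an unadjusted p under 0.05. Whether any list differed from another was not tested.

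**Figure D4:**
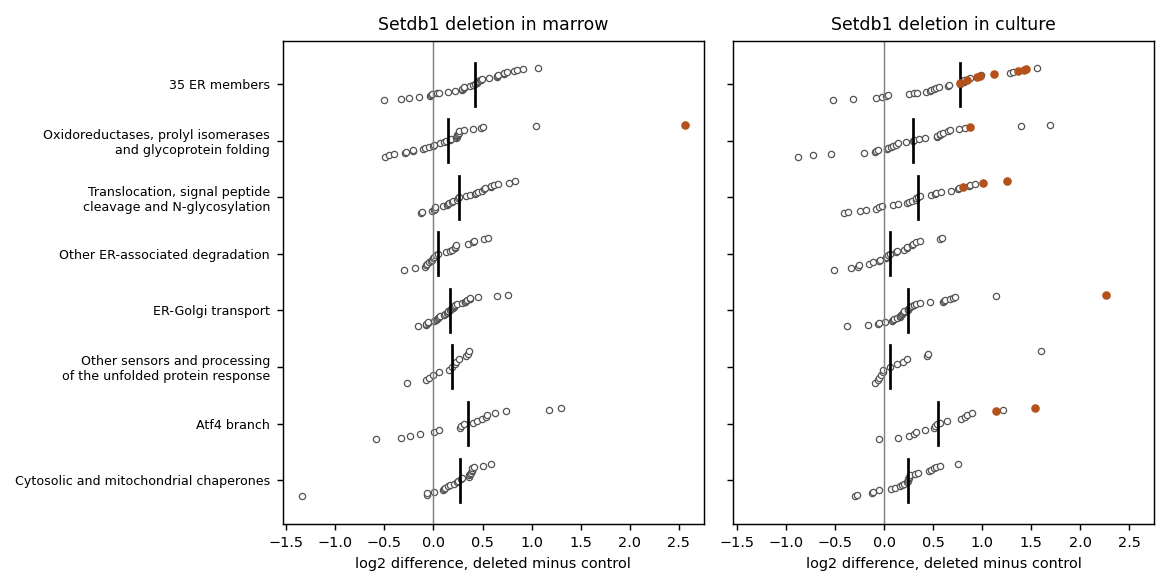
Log2 difference between Setdb1-deleted and control arrays (x axis) for the tested genes of 8 lists (y axis), in marrow (left) and culture (right); each point is a gene, filled where its adjusted p is below 0.05, and black bars are list medians. The 35 ER members have medians of 0.42 and 0.78, and cytosolic and mitochondrial chaperones 0.27 and 0.25.

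Set against the promoter sequences, the ERSE was found in 4 of the 11 genes that rose over both settings and have a window (Hspa5, Pdia6, Calr and Creld2), and in 5 of the 18 windowed genes that did not pass (Hsp90b1, Canx, Dnajc3, Syvn1 and Derl3). The shared differences of these last 5 ran from 0.06 for Syvn1 to 0.98 for Derl3. Risen genes without an exact match in the window included Xbp1 and Pdia4, and near matches were not counted. Hyou1, Manf, Sec61a1 and 2010001M09Rik also rose but had no window to search. Markers of other cells also differed with deletion. Of the 16 neutrophil and monocyte markers 16 were higher in deleted cultures, with a median of 0.81, and 4 of 16 in deleted marrow cells, with a median of -0.69; 0 passed in either, and 1 and 5 had an unadjusted p under 0.05. Summed T cell markers, 7 on the array, read 8.13 to 8.92 in culture controls and 10.98 to 11.06 in deleted cultures (8.06 to 8.79 and 9.17 to 9.39 in marrow). The largest gap was for Thy1, at 6.89 and 8.23 against 10.90 and 10.80 in culture and 6.25 and 6.55 against 8.97 and 8.68 in marrow. With deletion 6 of the 7 were higher in culture, with a median of 0.25. In marrow only 1 of the 7 was higher, Thy1, and the median was -0.19. Cd3d lay below 4.03 in both deleted cultures, where 5 to 6 of the 7 markers were above that value. Summed stromal and endothelial markers, 9 on the array, read 9.56 to 9.60 in culture controls and 10.22 to 10.72 in deleted cultures (10.15 to 12.29 and 10.54 to 11.00 in marrow). In every array 8 of them were above 4.03. The 12.29 belongs to marrow control 1, where Vcam1 read 12.04. In culture Sparc read 6.07 and 7.58 in controls against 9.30 and 10.02, whereas Pecam1 read 8.75 and 8.28 against 7.50 and 7.08. With deletion 6 of the 8 tested were higher in culture, with a median of 0.63, and 4 of 8 in marrow, with a median of 0.04. Thy1 and Sparc passed the test in culture. Summed plasmacytoid dendritic cell markers, 9 on the array, read 12.43 to 12.66 and 11.77 to 11.89 (11.12 to 12.09 and 11.06 to 11.19 in marrow). That sum was lower in deleted cultures, with Ly6d at 11.56 and 10.94 against 8.92 and 8.18 and Spib at 10.95 and 10.91 against 10.38 and 9.74, whereas the other 7 markers were higher, among them Siglech at 5.46 and 7.32 against 7.27 and 7.99, and the median of the 9 differences was 0.25. Over both settings 3 of 8 stromal and endothelial and 1 of 7 T cell markers rose, and 1 of 7 mast cell and basophil markers fell. Among neutrophil and monocyte, plasmacytoid dendritic and erythroid markers 0 of 16, 0 of 9 and 0 of 5 passed there. Of all genes 1.48% rose and 1.38% fell in that contrast. The part of these cells in the ER results was not tested.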

How the data were processed

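RNA from 8 samples was amplified, labelled with biotin and hybridised to 1 Affymetrix array each, per the labels' protocols. The deposited log2 values, 241576 probesets, came from the authors' use of RMA in Expression Console (version 1.2.0.20), per the submitters' processing notes, and used as deposited. The genome build is not given in the sources used here.

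A gene's value is the median polish over its single-symbol probesets; 4475 probesets with several symbols and 25004 with none were left out. Genes whose value passed 4.03, the 25th percentile, in at least 2 arrays were tested (16050 of 20416). Limma 3.58.1 in R 4.3.3 (package data.table, version 1.17.8) fitted the means of the 4 groups to all 8 arrays. Tests were two-sided, p-values were adjusted by Benjamini-Hochberg over the genes tested, and the threshold was 0.05. The shared deletion effect is the mean of the marrow and culture effects. The fit was tested on simulated data. The number of arrays limits the precision of every value.

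Members and lists were chosen with earlier results of these data known. Arrays are described one by one for every member past the threshold in any contrast and for Derl3, the ERAD gene with the largest change in culture. From each list up to 4 members past the threshold, or the 2 with the lowest p, are named per deletion contrast. Beyond that rule, every listed gene past the threshold over both settings is named, after its values were seen. Atf6, Ern1 and other members are given in addition. Alternatives were the probeset mean, other filters, centring, a variance trend, fewer groups, a replicate block and leaving out arrays.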

Additional observations from a re-analysis of the deposited data

How the results depend on the processing

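Under every alternative run, the 50 called changes of members and listed genes in the marrow, culture and shared contrasts kept their direction. Of 3219 alternative values of the 205 uncalled differences examined, all of members in any contrast and of listed genes named, 127 changed sign. Counts moved more than directions. In culture, where 8 members rose, 2 rose in the fit of the groups compared alone (Hyou1 and Pdia6), 3 with the replicate block (P4hb, Pdia6 and Xbp1), 0 without both culture arrays numbered 2, and 0 to 14 when 1 array was left out. Over both settings, where 15 rose, it was 8 with the replicate block, 0 without both culture arrays numbered 2, and 0 to 15 when 1 array was left out (at 15, 14 rose and 1 fell). The shared contrast uses all arrays, so it was not refitted on fewer groups. In marrow and for culture in control cells, leaving out 1 array moved the count from 0 only where marrow control 2 was left out. That fit has a single marrow control, and calls over all genes rose in it as well. Among member probesets 8 rose in culture with a variance trend (208 of 176903 over all probesets), against 0 otherwise. Over all genes, calls in culture fell from 232 to 158 with the groups compared alone, to 115 with the block and to 8 without both culture arrays numbered 2. Fits with fewer arrays have fewer residual degrees of freedom, and a group left with 1 array is assumed to vary like the others. Replicate numbers were shared by the 4 groups. Same-numbered deviations correlated at 0.34 between the culture groups, 0.05 between the marrow groups and -0.18 to -0.06 across settings. The main fit did not take the numbers as pairs. Whether culture arrays of the same number belong together is not given in the sources used here, so the counts with the block are shown as well.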

Other observations

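Some ER genes read further apart in culture than in marrow, although none passed the test of that difference. The change with deletion in culture minus that in marrow was 0.77 (95% interval 0.04 to 1.51) for Xbp1, 0.73 (95% interval 0.16 to 1.31) for Edem2, 0.67 (95% interval 0.18 to 1.17) for P4hb, 0.67 (95% interval 0.09 to 1.26) for Sec61a1 and 0.66 (95% interval 0.13 to 1.18) for Calr. For Edem1 it was 0.52 (95% interval 0.04 to 1.01) and for Pdia6 0.52 (95% interval 0.01 to 1.02). These 7 genes had an unadjusted p under 0.05 and adjusted p from 0.605 to 0.653 (limma), and were picked by that value. Edem1 and Edem2 were higher in both deleted cultures than in both culture controls (7.88 and 7.95 against 7.30 and 7.52, and 7.07 and 7.14 against 6.53 and 6.71), whereas their marrow arrays overlapped.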
